A study of Mus musculus with 6 samples.

Results

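Transcripts of 42 genes that bring amino acids into cells, sense them through mTORC1 or answer their shortage through ATF4 were measured in sorted marginal zone (MZ) B cells. The genes were taken by symbol from a table of 55487 gene IDs and fall into 3 classes, namely 10 amino acid transporters, 21 mTORC1 components and regulators, and 11 genes made up of Atf4 and its target genes. MZ B cells of CD55KO mice (3 libraries) were compared with those of WT C57BL/6 mice (3 libraries), with mice of both genotypes aged 14 weeks. Each library came from bulk RNA of cells that were enriched for B cells by negative selection and then sorted by flow cytometry as MZ B cells. CD55, or decay-accelerating factor, is a cell-surface inhibitor of complement activation. The sources used here do not state which part of Cd55 is deleted or on which strain background the CD55KO mice were kept. Nor do they say if each library stands for a mouse of its own, so a p-value here measures library-to-library spread only, and that spread may be technical.

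mTORC1 is a kinase complex that is switched on at the lysosome when Rag GTPases, held there by the Ragulator complex, report that amino acids are present and when the GTPase Rheb is active. It then promotes protein synthesis, in part through S6 kinase and the eIF4E-binding proteins. ATF4 is a transcription factor whose protein is made preferentially when eIF2 is phosphorylated, and it raises transcription of amino acid transporters and of the enzymes that make serine, glycine and asparagine. In MZ B cells, which secrete antibody quickly after stimulation, mTOR signalling is known to take part in antibody responses triggered through the receptor TACI.

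ATF4 pairs with C/EBP proteins on sites with the core TGATGNAA, and this core is shown here for the 5 members whose promoter held it, because it is the sequence feature that ties the ATF4 class to some of the transporters. Promoters were taken from RefSeq on GRCm38.p6, from 250 bases before to 50 bases after each annotated start. They were found for 37 of the 42 members, namely 7 of the 10 transporters, 19 of the 21 mTORC1 genes and all 11 genes of the ATF4 class. Each line gives 30 bases, 5′ to 3′ on the strand of the gene, with the core in capitals. Where the core lies on the opposite strand it reads TTNCATCA.
Chac1: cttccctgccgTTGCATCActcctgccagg
Trib3: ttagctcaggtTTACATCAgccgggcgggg
Asns: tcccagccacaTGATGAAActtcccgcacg
Slc7a11, upstream core: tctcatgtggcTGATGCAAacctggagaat
Slc7a11, downstream core: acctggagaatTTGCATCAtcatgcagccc
Slc1a4: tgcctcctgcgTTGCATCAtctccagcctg
The windows lie at chr2:119351038-119351067 on the plus strand for Chac1, and on the minus strand at chr2:152344028-152344057 for Trib3, at chr6:7693214-7693243 for Asns, at chr3:50443661-50443690 and chr3:50443642-50443671 for Slc7a11 and at chr11:20332699-20332728 for Slc1a4. Counted from the annotated start, the first base of the core lay at -193 in Chac1, at 14 (downstream of the start) in Trib3, at -23 in Asns, at -66 and -47 in Slc7a11 and at -4 in Slc1a4.

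The core was present on either strand in 3 of the 12 promoters of the ATF4 class, in 2 of the 9 promoters of the transporters and in 0 of the 20 promoters of the mTORC1 class, beside 1304 of 32851 promoters (3.97%) in the whole RefSeq table. The ATF4 class was chosen as known targets, so its share is part of that choice. A second motif, the CLEAR element core GTCACGTG, which is bound by the lysosomal gene activators TFEB and TFE3, was present on either strand in 1 of the 20 promoters of the mTORC1 class, that of Rheb, in none of the other classes and in 738 of all 32851 promoters (2.25%). It is shown in capitals for Rheb, whose product activates mTORC1 directly, in the window chr5:24842441-24842470 on the minus strand, where the core starts at -98 and overlaps no TGATGNAA core.
Rheb: ggccgcgcgcgGTCACGTGggtgtgttgtt
A match is a description of the letters and does not show binding.

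Estimated counts per gene summed to between 24961311 and 29209592 per CD55KO library and to between 20056064 and 30784031 per WT library. Levels are given as CPM (counts scaled to a fixed library total) after TMM scaling, and levels of different genes are compared only as CPM per kilobase of merged exons. That length covers the exons of all annotated transcripts and can exceed those the cells express. Orders and shares between genes depend on it. Cd55 had 8.95, 6.23 and 7.43 CPM in the CD55KO libraries, against 125, 119 and 110 CPM in the WT libraries (log2 fold change -3.96 ± 0.11 SE, adjusted p = 3.9e-12, edgeR quasi-likelihood test). Cd55 lies on chromosome 1, which carries 0 of the 42 members. All 15 MZ B cell markers and all 8 B cell markers had enough counts to be tested. The summed level of the MZ markers spanned 5468 to 5912 CPM in CD55KO and 5494 to 5870 CPM in WT. Of the 15 MZ markers, 9 log2 fold changes were positive and 6 negative, from -0.866 to 0.276. Among them 2 markers were higher and 1 was lower in all CD55KO libraries (20% without overlap, beside 14.1% of all genes tested). At an unadjusted p under 0.05 (edgeR quasi-likelihood test) there were 3 (20%, beside 8.6% of all genes tested). None passed (smallest adjusted p = 0.283). The 6 follicular B cell markers summed to 1806 to 1887 CPM in CD55KO and 1630 to 1922 CPM in WT. Their log2 fold changes were positive for 4 and negative for 2, and none passed. The 8 T and NK cell markers summed to at most 1.75 CPM and the 6 neutrophil markers to at most 0.391 CPM in any library. The 10 macrophage and monocyte markers summed to 23.8 to 29.4 CPM in CD55KO and 17.5 to 25.6 CPM in WT. Of the 8 tested, 4 were positive and 4 negative. In all CD55KO libraries 2 of them were higher (25%, against 7.24% of all genes in that direction). The 8 plasma cell markers summed to 617 to 682 CPM in CD55KO and 595 to 628 CPM in WT. Of the 6 tested, 3 log2 fold changes were positive and 3 negative (median -0.33), and none passed the test. In all CD55KO libraries 1 marker was higher and 2 were lower (50% without overlap, beside 14.1% of all genes tested). WT replicate 1 stood apart from the other 5 libraries on the first principal component. It also had the highest summed levels of 11 markers of dividing cells (286 to 325 CPM in CD55KO, against 515, 324 and 314 CPM in WT), of 8 germinal centre B cell markers (20.7 to 30.9 CPM in CD55KO, against 75.3, 27.2 and 61.1 CPM in WT) and of 6 red cell precursor markers (35.8 to 1989 CPM in CD55KO, against 4351, 356 and 105 CPM in WT). All 11 dividing cell markers, 7 of 8 germinal centre markers and all 6 red cell markers had a negative fitted log2 change, and of these only the germinal centre marker Gcsam passed the test (adjusted p = 0.0343). Their part in the results below was not tested except by leaving out libraries. In RNA of a sorted population, fewer cells of a type and less RNA per cell cannot be told apart.

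None of the members changed between CD55KO and WT MZ B cells at an adjusted p of 0.05. Of the 42 members 40 had enough counts to be tested, and 0 of these 40 passed edgeR's quasi-likelihood test with Benjamini-Hochberg adjustment over all 13794 genes tested, where 55 genes (0.399%) passed, 0.138% higher and 0.261% lower in CD55KO. The smallest adjusted p among them was 0.191, for the glutamine transporter Slc1a5. At an unadjusted p under 0.05 there were 5 members (12.5%), beside 8.6% of all genes tested. They were Slc1a5, Shmt2, Mthfd2 and Trib3 with lower fitted levels in CD55KO and Rragc with a higher one, beside 4.3% of all genes in each direction. DESeq2 called 1 member, Slc1a5, and edgeR without a filter on low counts called 2, Slc1a5 and Sesn1.

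The intervals bound the difference between these libraries only, as they rest on a spread that may be technical. The 95% interval of the fold change lay within 1.5-fold in either direction for 30 of the 40 tested members (75.0%), beside 8635 of 13794 genes (62.6%), and within 2-fold for 36 of the 40. The 4 members whose interval reached past 2-fold were Deptor, Trib3, Chac1 and Cebpb, each below 2 CPM in every library. The median log2 fold change over the 40 members was -0.03, beside 0.00 over all genes tested, with 16 members positive and 24 negative. Values of the 2 genotypes did not overlap for 6 members (15%), beside 14.1% of all genes tested. Rragc was higher in all CD55KO libraries (1 of 40, against 7.24% of all genes in that direction), and Slc1a5, Sesn2, Sesn3, Shmt2 and Trib3 were lower in all of them (5 of 40, against 6.84% of all genes in that direction).

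**Figure D1:**
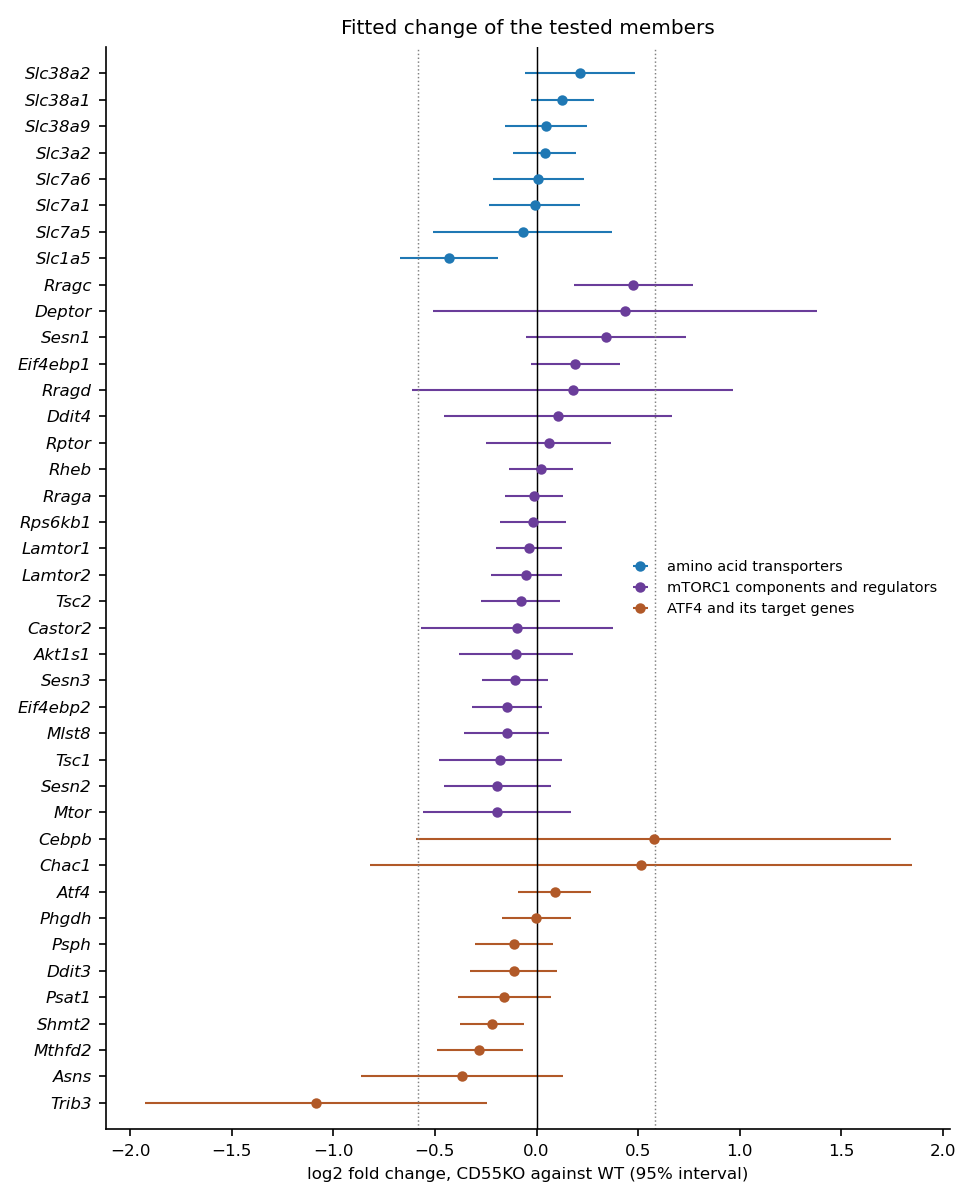
Fitted log2 fold change of each of the 40 tested members, CD55KO against WT, with its 95% interval on the horizontal axis and the genes grouped by class on the vertical axis; dotted lines mark a 1.5-fold difference. Most intervals cross 0; those of Slc1a5, Shmt2, Mthfd2 and Trib3 lie below it and that of Rragc above it, and the intervals of Trib3, Deptor, Chac1 and Cebpb are the widest.

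Per kilobase of exon, Slc3a2, the CD98 heavy chain that carries several light-chain transporters to the cell surface, was highest at 22.2 ± 0.95 CPM per kb in CD55KO and 21.6 ± 0.97 CPM per kb in WT (SD, n = 3 each). It was followed by Slc1a5, Slc38a1, Slc38a2, Slc7a6, Slc38a9, Slc7a1 and Slc7a5 in that order in both genotypes. Among neighbours in the order, only Slc38a2 and Slc7a6 in WT had overlapping libraries. Slc7a5, the leucine carrier LAT1 that pairs with Slc3a2, stood at 1.01 ± 0.05 CPM per kb in CD55KO and 1.06 ± 0.12 CPM per kb in WT, while Slc7a6, the light chain y+LAT2, stood at 4.61 ± 0.24 CPM per kb in CD55KO and 4.58 ± 0.47 CPM per kb in WT. The remaining 2 transporters were below the count filter. The neutral amino acid exchanger Slc1a4 had 7, 8 and 5 estimated counts in CD55KO libraries and 5, 7 and 10 in WT libraries. The cystine transporter Slc7a11 had 0, 1 and 1 in CD55KO libraries and 0, 1 and 0 in WT libraries, where a count of 0 allows up to 3 counts, or between 0.103 and 0.150 CPM (by library total, without TMM scaling) in the 3 libraries at 0. These 2 genes, both below the count filter, are the ones with a TGATGNAA core among the 7 of 10 transporters that had a promoter. The others of these 7 held no core, and the transporters outside the 7 had no promoter to search.

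**Figure D2:**
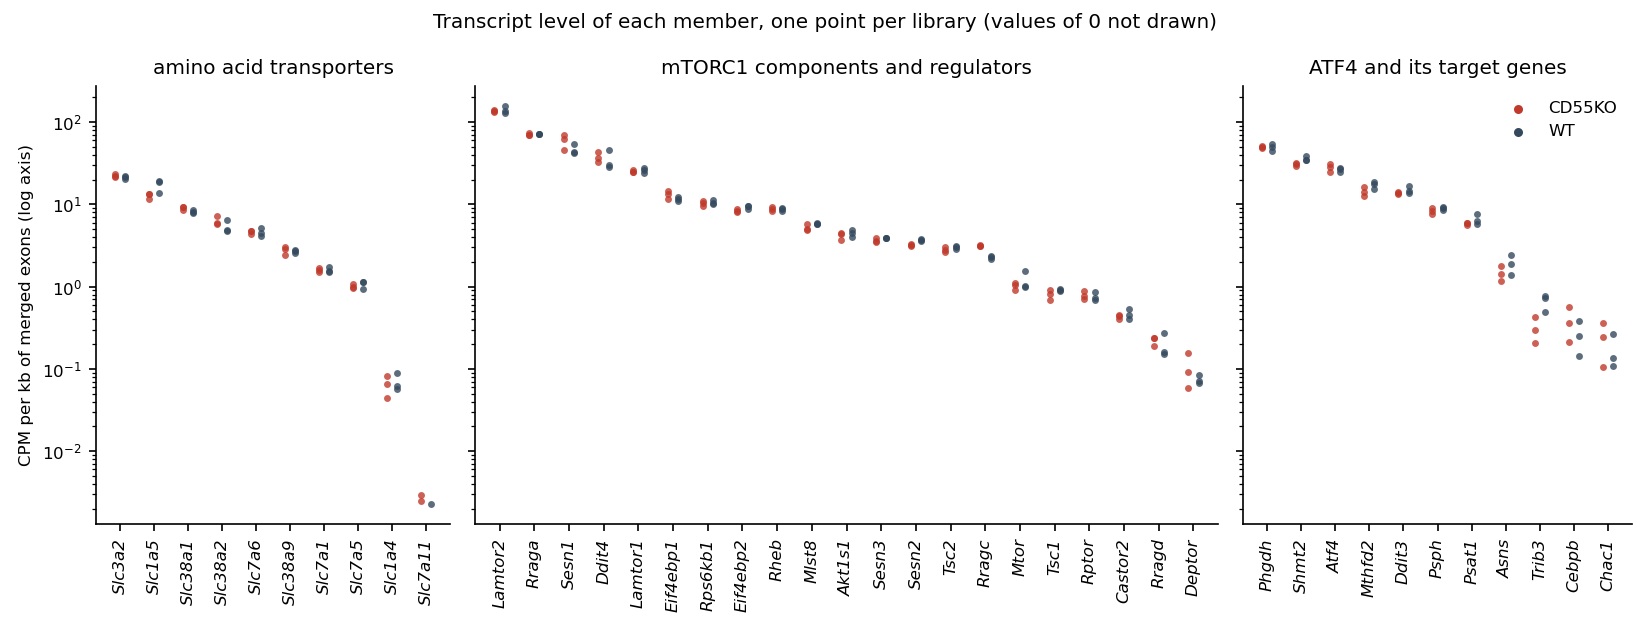
Level of every member in every library, as TMM-scaled CPM per kilobase of merged exons on a log axis, with CD55KO and WT points for each gene and a panel for each class. Levels span several orders of magnitude between genes, from Lamtor2 at 136 CPM per kb in CD55KO and 141 CPM per kb in WT to Slc7a11 at or near 0, while the genotypes lie close together for most genes; values of 0 are not drawn.

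Slc1a5, the ASCT2 carrier that takes up glutamine, had 55.6, 48.7 and 55.1 CPM in CD55KO libraries, against 79.4, 78.2 and 57.6 CPM in WT libraries. All CD55KO values were below all WT values, but WT replicate 3 lay close to the CD55KO range. The fitted log2 fold change was -0.43 ± 0.11 SE, a fold of 0.742 with a 95% interval of 0.627 to 0.878, and did not pass (adjusted p = 0.191, edgeR quasi-likelihood test). Without WT replicate 3 the log2 fold change was -0.57 and the adjusted p 0.0117. DESeq2 gave an adjusted p of 0.0301 and edgeR without a count filter gave 0.00014, while without CD55KO replicate 2 it was 0.48.

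Slc38a1, the SNAT1 carrier of glutamine and other small neutral amino acids, had 158, 160 and 146 CPM in CD55KO libraries, against 137, 148 and 140 CPM in WT libraries. The genotypes overlapped, with a log2 fold change of 0.13 ± 0.07 SE (adjusted p = 0.692). Slc38a2, the SNAT2 carrier whose expression is known to respond to amino acid supply, had 50.4, 51.8 and 63.0 CPM in CD55KO libraries, against 42.1, 57.1 and 43.0 CPM in WT libraries. Its highest value was in CD55KO replicate 3 and WT replicate 2 lay within the CD55KO range (log2 fold change 0.21 ± 0.12 SE, adjusted p = 0.697). Slc3a2 had 81.9, 77.8 and 75.2 CPM in CD55KO libraries, against 72.3, 76.9 and 79.0 CPM in WT libraries. These ranges overlapped, and the 95% interval of its log2 fold change of 0.04 was -0.11 to 0.20 (adjusted p = 0.937). The other 4 tested transporters were Slc7a5, Slc7a6, the arginine and lysine carrier Slc7a1 and Slc38a9, the lysosomal arginine sensor that signals to mTORC1. Their log2 fold changes lay between -0.07 and 0.05, each with an adjusted p of at least 0.937. Over the 8 tested transporters 5 log2 fold changes were positive and 3 negative, with a median of 0.03.

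Within the mTORC1 class Lamtor2 and Rraga had the highest transcript levels per length. Lamtor2, a subunit of the Ragulator scaffold, stood at 136 ± 3.43 CPM per kb in CD55KO and 141 ± 14.3 CPM per kb in WT (SD, n = 3 each). Rraga, the RagA GTPase, came next at 70.8 ± 1.95 CPM per kb in CD55KO and 71.5 ± 0.29 CPM per kb in WT. Sesn1, a sestrin that restrains mTORC1 by binding the GATOR2 complex, followed at 58.9 ± 12.2 CPM per kb in CD55KO and 46.5 ± 6.86 CPM per kb in WT. Ddit4 (REDD1, an mTORC1 inhibitor induced by stress) and Lamtor1 (the Ragulator subunit that attaches to the lysosomal membrane) were next, at 37.7 and 25.3 CPM per kb in CD55KO and at 35.0 and 25.98 CPM per kb in WT. The kinase subunit Mtor stood at 1.03 ± 0.10 CPM per kb in CD55KO and 1.18 ± 0.32 CPM per kb in WT, and its partner Rptor at 0.794 ± 0.09 CPM per kb in CD55KO and 0.762 ± 0.09 CPM per kb in WT. The lowest was Deptor, an inhibitory subunit, at 0.102 ± 0.05 CPM per kb in CD55KO and 0.075 ± 0.01 CPM per kb in WT. Overlapping neighbours were Rheb and Eif4ebp2, Akt1s1 and Sesn3, Sesn2 and Rragc, and Tsc1 and Rptor in CD55KO, and Sesn1 and Ddit4, Eif4ebp1 and Rps6kb1, and Eif4ebp2 and Rheb in WT. Rragc stood above Tsc2 in CD55KO and below it in WT.

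Rragc, the RagC GTPase that pairs with RagA or RagB to bring mTORC1 to the lysosome, had 10.5, 10.4 and 10.8 CPM in CD55KO libraries, against 7.63, 7.25 and 7.89 CPM in WT libraries. The libraries of each genotype lay close together and the genotypes did not overlap. The fold was 1.39 with a 95% interval of 1.14 to 1.71 (log2 fold change 0.48 ± 0.14 SE) and did not pass (adjusted p = 0.239, edgeR quasi-likelihood test). Its exons overlap those of 4930535I16Rik on the opposite strand over 264 bases (7.9% of its exons), and the library kit is not stated to mark strand, so reads of this stretch cannot be told apart. Rraga had 118, 112 and 113 CPM in CD55KO libraries, against 115, 116 and 115 CPM in WT libraries. These ranges overlapped, and the 95% interval of its log2 fold change of -0.01 was -0.16 to 0.13 (adjusted p = 0.989). The third Rag gene of the class, Rragd, was near 1 CPM (0.981 to 1.25 CPM in CD55KO, against 0.782 to 1.41 CPM in WT).

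Sesn1 had 180, 250 and 274 CPM in CD55KO libraries, against 169, 170 and 217 CPM in WT libraries. CD55KO replicates 2 and 3 were above all WT libraries, whereas CD55KO replicate 1 lay within the WT range. Its log2 fold change of 0.34 ± 0.17 SE did not pass (adjusted p = 0.649), although edgeR without a count filter gave an adjusted p of 0.032. The other sestrins pointed the other way without passing. Sesn2 had 10.96 to 11.6 CPM in CD55KO, against 12.3 to 13.2 CPM in WT, and Sesn3 had 52.7 to 59.0 CPM in CD55KO, against 59.6 to 60.0 CPM in WT. Neither pair of ranges overlapped, and the adjusted p-values were 0.733 for Sesn2 and 0.773 for Sesn3.

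The eIF4E-binding proteins hold back translation initiation until mTORC1 phosphorylates them, and their 2 transcripts differed in opposite directions without passing the test. Eif4ebp1 had 25.5, 32.4 and 29.5 CPM in CD55KO libraries, against 23.9, 25.6 and 26.9 CPM in WT libraries. CD55KO replicate 1 lay within the WT range and the other CD55KO libraries above it (log2 fold change 0.19 ± 0.10 SE, adjusted p = 0.66). Eif4ebp2 had 46.3, 50.4 and 48.3 CPM in CD55KO libraries, against 55.0, 55.1 and 50.3 CPM in WT libraries. Only CD55KO replicate 2 and WT replicate 3 overlapped (log2 fold change -0.15 ± 0.08 SE, adjusted p = 0.667). Lamtor2 had 161, 168 and 169 CPM in CD55KO libraries, against 165, 159 and 192 CPM in WT libraries. Its WT range enclosed all CD55KO values (log2 fold change -0.05 ± 0.08 SE, adjusted p = 0.928).

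Of the other 15 mTORC1 members, Mtor, Rptor, Mlst8, Akt1s1 (PRAS40) and Deptor form the complex or bind it, Rheb activates it, Tsc1 and Tsc2 inactivate Rheb, and Lamtor1 and Rragd belong to its lysosomal anchor. Sesn2, Sesn3 and Castor2 act upstream, as does Ddit4, while the S6 kinase Rps6kb1 is a substrate. Their log2 fold changes lay between -0.20 for Mtor and 0.44 for Deptor, each with an adjusted p of at least 0.733. Mtor had 11.3, 9.31 and 10.7 CPM in CD55KO libraries, against 10.2, 15.6 and 9.95 CPM in WT libraries. Only WT replicate 2 stood above the CD55KO range, and without it the log2 fold change of Mtor was 0.05 in place of -0.20. Rheb, whose promoter holds the CLEAR core, had 64.9 to 71.5 CPM in CD55KO, against 64.4 to 70.1 CPM in WT, with a 95% interval of -0.14 to 0.18 for its log2 fold change. Over the 21 genes of the class 8 log2 fold changes were positive and 13 negative, with a median of -0.04.

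**Figure D3:**
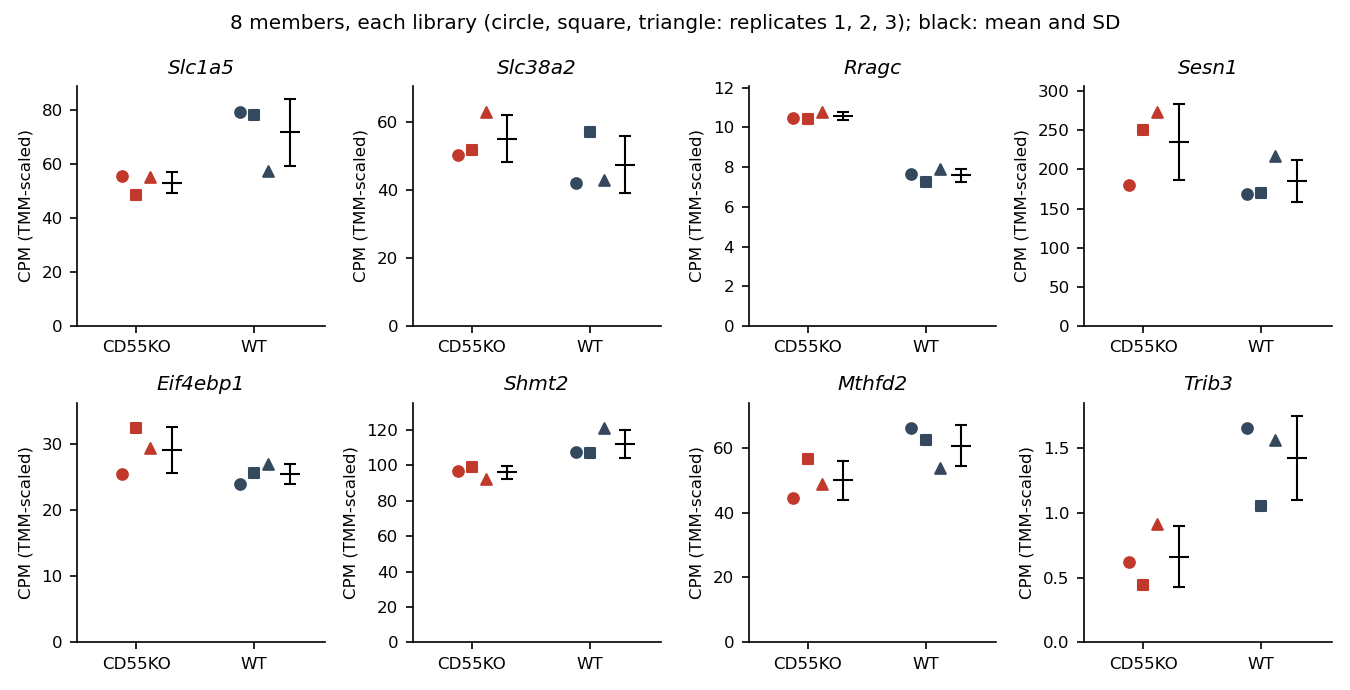
TMM-scaled CPM of 8 members in each library, CD55KO left and WT right of each panel, with replicate numbers as marker shapes and the mean and SD in black; each vertical axis starts at 0. Rragc, Slc1a5, Shmt2 and Trib3 show no overlap between genotypes, with WT replicate 3 of Slc1a5 at 57.6 CPM close to the CD55KO libraries.

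In the ATF4 class Phgdh, Shmt2 and Atf4 itself had the highest transcript levels per length, and Trib3, Chac1 and Cebpb had the lowest. Phgdh, the first enzyme of serine synthesis, stood at 49.6 ± 1.49 CPM per kb in CD55KO and 49.6 ± 4.85 CPM per kb in WT (SD, n = 3 each). Shmt2, the mitochondrial enzyme that turns serine into glycine, stood at 30.9 ± 1.15 CPM per kb in CD55KO and 36.0 ± 2.51 CPM per kb in WT, and Atf4 at 28.1 ± 2.86 CPM per kb in CD55KO and 26.4 ± 1.41 CPM per kb in WT. Mthfd2, the mitochondrial folate enzyme, and Ddit3, the stress factor CHOP, came next and overlapped in both genotypes. The serine synthesis enzymes Psph and Psat1 followed, then asparagine synthetase, Asns. The pseudokinase Trib3, the glutathione-degrading enzyme Chac1 and the transcription factor Cebpb were each below 0.8 CPM per kb in every library. Other overlapping neighbours were Shmt2 and Atf4, Cebpb and Trib3, and Trib3 and Chac1 in CD55KO, and Cebpb and Chac1 in WT. The 3 genes of the class with a TGATGNAA core in their promoter windows, Asns, Trib3 and Chac1, were thus among its 4 lowest.

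Shmt2 had 96.9, 99.2 and 92.3 CPM in CD55KO libraries, against 108, 107 and 121 CPM in WT libraries. All CD55KO values were below all WT values. The log2 fold change of -0.22 ± 0.07 SE, a fold of 0.859 with a 95% interval of 0.770 to 0.957, did not pass (adjusted p = 0.334, edgeR quasi-likelihood test). Mthfd2, which acts on the carbon units that Shmt2 releases, had 44.5, 56.4 and 48.7 CPM in CD55KO libraries, against 66.0, 62.3 and 53.6 CPM in WT libraries. CD55KO replicate 2 and WT replicate 3 overlapped (log2 fold change -0.28 ± 0.10 SE, adjusted p = 0.389). Trib3, which is induced by ATF4 and feeds back on it, had 17, 11 and 26 estimated counts in CD55KO libraries, against 34, 33 and 44 in WT libraries. All CD55KO values were below all WT values, at 0.445 to 0.911 CPM in CD55KO and 1.05 to 1.65 CPM in WT, and the fold of 0.471 had a 95% interval of 0.263 to 0.843 (log2 fold change -1.09 ± 0.40 SE, adjusted p = 0.402).

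Asns had 3.89, 3.24 and 4.90 CPM in CD55KO libraries, against 6.61, 3.83 and 5.19 CPM in WT libraries. The genotypes overlapped and WT replicate 1 was the highest (log2 fold change -0.37 ± 0.24 SE, adjusted p = 0.734). Atf4 had 59.0, 67.9 and 72.2 CPM in CD55KO libraries, against 62.8, 65.4 and 58.8 CPM in WT libraries. CD55KO replicates 2 and 3 were above all WT libraries and CD55KO replicate 1 lay within the WT range, with a 95% interval of -0.09 to 0.27 for the log2 fold change of 0.09 (adjusted p = 0.84). ATF4 is controlled largely through its translation, which transcript counts do not measure. Phgdh had 127, 120 and 123 CPM in CD55KO libraries, against 110, 125 and 134 CPM in WT libraries. The WT range enclosed the CD55KO values, and the log2 fold change of -0.00 had a 95% interval of -0.17 to 0.17 (adjusted p = 0.999).

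The other 5 genes of the class, Ddit3, Psat1, Psph, Chac1 and Cebpb, had log2 fold changes between -0.16 for Psat1 and 0.58 for Cebpb, each with an adjusted p of at least 0.748. Chac1 and Cebpb had at most 24 estimated counts in any library, and their intervals spanned a fold of 0.566 to 3.59 for Chac1 and of 0.664 to 3.35 for Cebpb. Over the 11 genes of the class 3 log2 fold changes were positive and 8 negative (72.7%, beside 49.6% of all genes tested), with a median of -0.11. Averaged over the class, log2(CPM + 0.5) was 3.80, 3.77 and 3.86 in CD55KO libraries, against 4.05, 3.86 and 3.90 in WT libraries. WT replicate 1, the library with the most dividing cell, germinal centre and red cell transcripts, was the highest. On the same scale the 6 tested plasma cell markers averaged 4.33, 4.40 and 4.32 in CD55KO libraries, against 5.03, 4.71 and 4.59 in WT libraries. These means did not overlap, and WT replicate 1 was again the highest. The 6 markers split into 3 positive and 3 negative log2 fold changes, from -1.442 to 0.243. Summed over all 8 plasma cell markers the level overlapped, at 617 to 682 CPM in CD55KO and 595 to 628 CPM in WT. The part of plasma cell transcripts in the class values was not tested. For the ATF4 class the other WT libraries lay at or just above the highest CD55KO library. Leaving out each library in turn gave a class median between -0.17 and -0.09, and it was -0.09 without WT replicate 1.

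**Figure D4:**
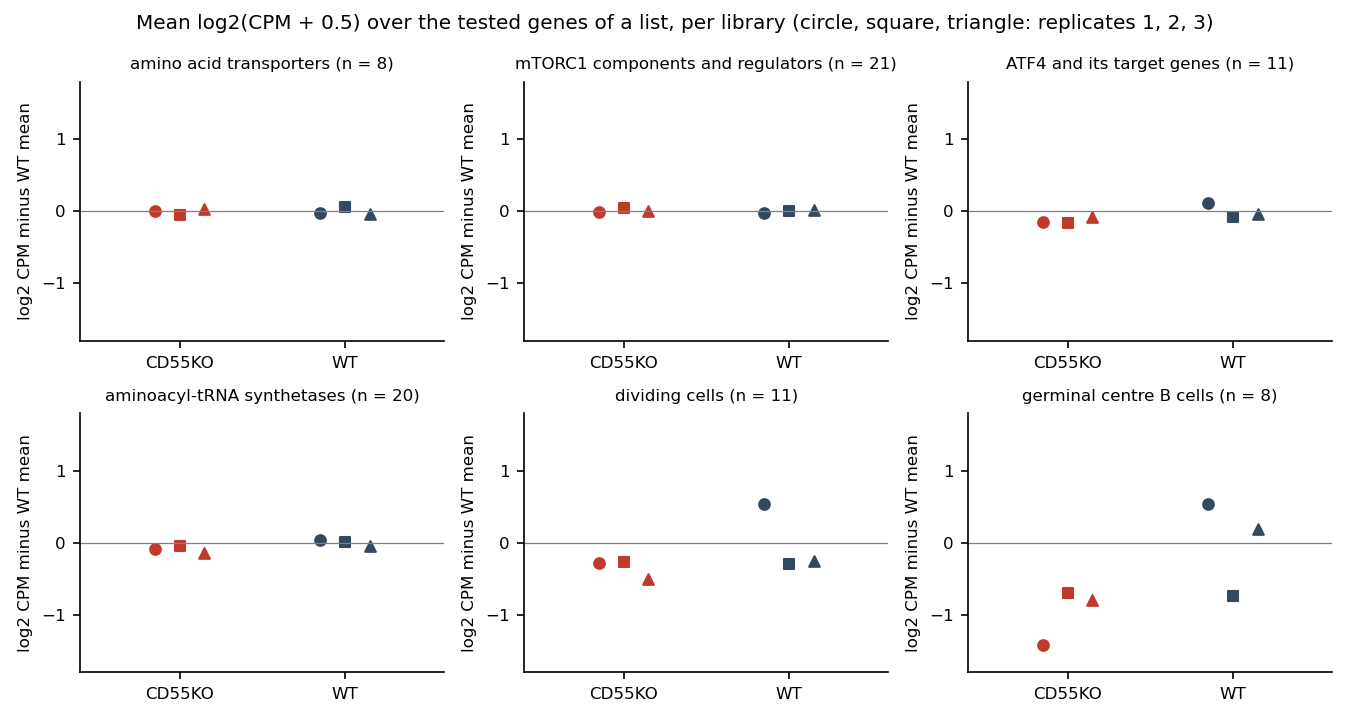
Mean log2(CPM + 0.5) of the tested genes of 6 lists in each library, drawn as the difference from the WT mean of that list, with CD55KO left and WT right of each panel and replicate numbers as marker shapes. The ATF4 class averages 3.77 to 3.86 in CD55KO, against 3.86 to 4.05 in WT, and WT replicate 1 is the highest WT library for it and for the dividing cell and germinal centre markers.

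No member of 6 wider lists of the same pathways passed the test (edgeR quasi-likelihood test, adjusted over all genes). Among 16 tested of 27 other amino acid carriers 8 log2 fold changes were positive and 8 negative (median 0.00). The smallest p-values belonged to Slc15a4, a lysosomal histidine and peptide carrier, and Slc38a7, a lysosomal glutamine carrier. Slc15a4 had 22.5, 27.7 and 24.9 CPM in CD55KO libraries, against 19.4, 25.2 and 21.3 CPM in WT libraries, which overlapped (adjusted p = 0.728). Slc38a7 had 9.28, 11.8 and 12.01 CPM in CD55KO libraries, against 12.8, 12.04 and 13.6 CPM in WT libraries, where all WT values were above all CD55KO values by a small margin (adjusted p = 0.731). Among 34 tested of 36 other nutrient sensors and mTOR complex genes 19 were positive and 15 negative (median 0.03). Nprl2, a subunit of the Rag-inhibiting GATOR1 complex, had 26.1, 29.9 and 29.7 CPM in CD55KO libraries, against 31.6, 34.6 and 34.4 CPM in WT libraries. Its genotypes did not overlap, but its log2 fold change of -0.23 did not pass (adjusted p = 0.467). Rragb, the RagB GTPase, had 2.97, 4.17 and 3.71 CPM in CD55KO libraries, against 4.62, 4.92 and 4.51 CPM in WT libraries, which did not overlap (adjusted p = 0.67).

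Among 20 genes known as targets of mTORC1 in translation 10 were positive and 10 negative (median 0.00). The smallest p-value was that of Pdcd4, an inhibitor of the helicase eIF4A whose protein S6 kinase marks for destruction. Pdcd4 had 464, 564 and 539 CPM in CD55KO libraries, against 402, 373 and 426 CPM in WT libraries. All CD55KO values were above all WT values, and the log2 fold change of 0.38 ± 0.09 SE did not pass (adjusted p = 0.117), while DESeq2, edgeR without a count filter and edgeR without CD55KO replicate 1 each called it. Larp1, which binds mRNAs of the translation machinery, had 33.3, 40.8 and 35.8 CPM in CD55KO libraries, against 30.5, 32.5 and 32.8 CPM in WT libraries, which did not overlap (adjusted p = 0.592). Among 16 genes of the eIF2 kinases and eIF2 itself 7 were positive and 9 negative (median -0.02). In that list Impact, an inhibitor of the eIF2 kinase GCN2, had 39.1, 29.1 and 29.6 CPM in CD55KO libraries, against 23.2, 28.0 and 30.9 CPM in WT libraries, which overlapped (adjusted p = 0.632). Eif2ak2, the eIF2 kinase PKR, had 42.1, 41.3 and 35.0 CPM in CD55KO libraries, against 36.1, 35.4 and 35.0 CPM in WT libraries, which overlapped (adjusted p = 0.709).

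Aminoacyl-tRNA synthetases, several of which are known ATF4 targets, had 3 positive and 17 negative log2 fold changes among 20 tested. The median was -0.06 and 85.0% were negative, beside 49.6% of all genes tested. Averaged over the list, log2(CPM + 0.5) was 6.265, 6.311 and 6.22 in CD55KO libraries, against 6.393, 6.365 and 6.319 in WT libraries. WT replicate 1 was again the highest, and without it the list median was -0.065. These genes share the same libraries, so their signs are not independent. Hars, the histidyl enzyme, had 81.8, 79.0 and 73.9 CPM in CD55KO libraries, against 89.4, 93.3 and 92.7 CPM in WT libraries. Cars, the cysteinyl enzyme, had 29.0, 31.8 and 24.6 CPM in CD55KO libraries, against 37.3, 33.9 and 35.8 CPM in WT libraries. Neither overlapped between genotypes, and neither passed (log2 fold change -0.23 ± 0.07 SE and adjusted p = 0.275 for Hars, and -0.33 ± 0.10 SE and adjusted p = 0.285 for Cars). The other ATF4 targets and amino acid synthesis genes had 8 positive and 17 negative values among 25 tested of 36, with a median of -0.12 that was -0.02 when genes were required to have at least 50 counts in 3 libraries, -0.07 without CD55KO replicate 1 and -0.06 without CD55KO replicate 2. Xpot, which exports tRNA from the nucleus, had 13.8, 14.2 and 15.2 CPM in CD55KO libraries, against 17.0, 17.1 and 17.4 CPM in WT libraries, which did not overlap (adjusted p = 0.543).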

How the data were processed

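Bulk RNA-seq was made from RNA of sorted MZ B cells with the SMARTer Ultra Low RNA kit, per the labels' protocols. The authors deposited a table of estimated counts per gene, of which 30.9% to 31.9% of the nonzero values per library were not whole (beyond 0.005). DRAGEN, limma and edgeR appear in the submitters' processing notes, with neither version nor role. No source used here gives the genome build, the annotation or the counting settings.

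Of 55774 rows, 287 repeats of a gene ID were removed. The estimated counts were rounded to whole numbers, filtered with filterByExpr (13794 genes kept) and tested with edgeR 4.0.16 (TMM, robust quasi-likelihood fit, genotype only, Benjamini-Hochberg over all genes, threshold 0.05) in R 4.3.3; the procedure was tested on simulated data. CPM used TMM scaling; CPM per kb used merged exon lengths of GENCODE M21 (GRCm38), which holds 99.5% of the IDs. The fit gives no SE, so the SE was taken as the absolute log2 fold change over the square root of the F statistic. The 95% intervals were built from this SE with a t quantile and are approximate. Limits from a count of 0 (3 counts) cover counting error only, as PCR reads without molecular identifiers are not independent molecules.

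Exons of 8 members overlap another gene entry over at least 5% of their length. For Ddit3 this includes 105 bases of a second entry with the same symbol, which had 0 counts. Counts of 10 members were not whole in some library (Lamtor1, Phgdh and Psph in all 6). Reads of these members may therefore be shared with other genes. The strand setting is not given, so overlapping and antisense genes cannot be told apart.

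Members and lists were chosen with earlier results of these data known. Named with every library's value were, per class, the 4 members of smallest p and the 3 of highest level per kb, and the 2 genes of smallest p of each wider list, of which 1 is not reported here; other genes named were chosen after their values were seen. Alternatives were DESeq2 1.42.0, limma-voom (limma 3.58.1), a replicate block, other scalings and count filters, a non-robust fit and leaving out each library.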

Additional observations from a re-analysis of the deposited data

How the results depend on the processing

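Over all genes 55 were called (19 higher and 36 lower in CD55KO). DESeq2's Wald test called 138 (60 higher, 78 lower) and edgeR without a count filter 232 (104 higher, 128 lower), and leaving out each library in turn gave 37 to 53 (12 to 20 higher, 24 to 35 lower), with 12 higher without WT replicate 3. Of the members, 0 were called as reported, 1 by DESeq2 (the transporter Slc1a5), 2 without a count filter (the transporter Slc1a5 and the mTORC1 regulator Sesn1) and 0 to 1 with a library left out (Slc1a5, without WT replicate 3). By class these are 1, 1 and 0 to 1 transporters, 0, 1 and 0 mTORC1 genes and 0 ATF4 genes throughout. In the wider lists 0 genes were called as reported, 1 by DESeq2 (Pdcd4), 2 without a count filter (Pdcd4 and Gars) and 0 to 1 with a library left out (Pdcd4, without CD55KO replicate 1). The cause of these differences was not tested.

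Replicate numbers are shared between genotypes, but nothing states that they pair the samples. Deviations of same-numbered libraries from their genotype means correlated at 0.08, -0.12 and 0.17, so the numbers were not taken as pairs. With a replicate block 64 genes were called (21 higher, 43 lower) and 0 members.

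Of the 40 tested members 28 kept the direction of their log2 fold change in each of the 14 alternatives that gave a value, and 5 (Deptor, Rragd, Trib3, Chac1 and Cebpb) gave none with at least 50 counts required in 3 libraries. Slc7a6 was -0.001 when scaled by library totals, and Phgdh was 0.003 with the replicate block, 0.0 with the 50-count filter and 0.002 with limma-voom. With a library left out the log2 fold change crossed 0 in 12 members, spanning -0.051 to 0.046 for Slc7a1, -0.053 to 0.096 for Slc7a6, -0.022 to 0.136 for Slc38a9, -0.314 to 0.053 for Mtor, -0.035 to 0.16 for Rptor, -0.017 to 0.053 for Rheb, -0.093 to 0.017 for Lamtor1, -0.103 to 0.035 for Lamtor2, -0.181 to 0.01 for Castor2, -0.019 to 0.354 for Ddit4, -0.066 to 0.034 for Rps6kb1 and -0.073 to 0.064 for Phgdh. Each of these 12 had an adjusted p of at least 0.825 as reported. Some list medians also crossed 0 with a library left out. That of the transporters, 0.025 as reported, was -0.016 without CD55KO replicate 3 and -0.001 without WT replicate 1. The median of the other nutrient sensors went as low as -0.028, and that of the eIF2 kinases and eIF2 genes was 0.016 without WT replicate 1. Those of the other amino acid carriers and of the translation targets went as low as -0.026 and -0.015.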

Other observations

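Shares within 6 gene families, computed from CPM per kb and chosen after the values were seen, were also compared without a test. For single genes, 14.1% of all those tested had no overlap between genotypes. Eif4ebp1 made up 59.1%, 62.9% and 61.6% of the summed Eif4ebp1 and Eif4ebp2 level in CD55KO libraries, against 53.4%, 55.0% and 58.5% in WT libraries, with no overlap. Sesn1 made up 87.3%, 90.2% and 90.5% of the summed sestrin level in CD55KO libraries, against 84.8%, 84.7% and 88.0% in WT libraries, which overlapped. Rraga made up 97.4% to 98.2% of the summed Rraga and Rragb level in CD55KO, against 97.1% to 97.3% in WT, with no overlap. Rraga itself overlapped between genotypes (log2 fold change -0.01), whereas Rragb was lower in all CD55KO libraries without passing. The other 3 shares computed, of Rragc with Rragd, of Castor2 with Castor1 and of Slc7a6 among light-chain transporters, overlapped between genotypes.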
